A study of Equus caballus with 14 samples.

Results

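SELP, the gene of P-selectin, and CAV1, the gene of caveolin-1, were followed over mediastinal lymph nodes of 14 horses. They are 2 of the 593 genes that could be named on the array. Their probes were found by the horse RefSeq transcript, which gave 1 probe for SELP, spotted 5 times on every array, and 5 different probes for CAV1. These 6 of 43603 probes all passed the filter on dim probes. SELP and CAV1 are not among the top up-regulated genes that the study tabulates. They were chosen because their difference between the groups, and their relation over horses, were already known from these arrays, so those values are a description and carry no p-value.

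The study compared nodes that drain the lung in 7 healthy control horses and 7 horses with heaves, the disease also called recurrent airway obstruction (RAO), a natural airway disease of horses kept on dusty hay. All were mixed breed horses, and both groups were stabled with dusty hay as a challenge before euthanasia. RAO-affected horses were on average older than controls, the horses were mares and geldings, and neither age nor sex is given here for single horses or, for sex, for the groups. Each RNA came from a piece of node with cortex and medulla. The labels give high RNA integrity to every sample, whereas the study's methods give a lower value to 1 RAO-affected sample. In such a mixture, fewer cells of a type and less RNA per cell cannot be told apart, and p-values measure the spread between these horses.

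P-selectin is stored in the Weibel-Palade bodies of endothelial cells and in the alpha granules of platelets. When it reaches the cell surface it binds PSGL-1, the product of SELPLG, and lets leukocytes roll along the vessel wall. Caveolin-1 is the scaffold of caveolae, small flask-shaped pits of the plasma membrane that are abundant in endothelium, adipocytes, fibroblasts and smooth muscle, and it restrains endothelial nitric oxide synthase.

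The arrays lay on 4 slides. Slide 1, which was scanned apart from the others, held control horses 3 and 5 and RAO-affected horse 4. Slide 2 held controls 1 and 7 with RAO-affected horses 2 and 6, slide 3 control 9 with RAO-affected horses 8 and 10, and slide 4 controls 11 and 13 with RAO-affected horses 12 and 14. Between 32794 and 40017 probes per array were well above background and between 1439 and 2614 were saturated, and the median local background was 45.5 to 46 on slide 1 against up to 97 on the others. The T cell gene CD2 and the endothelial junction gene PECAM1 were well above background on all 14 arrays. Of 20 blood endothelium markers, only PECAM1 and SELE were located on the array.

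SELP was higher in the RAO-affected nodes. On the log2 scale of quantile-normalized signal, its level in control horses ran from 9.27 through a median of 10.58 to 11.25. In RAO-affected horses it ran from 10.08 through a median of 12.005 to 14.17. The order within the groups shows who carried the difference: all but 1 of the RAO-affected horses exceeded every control, and the exception was horse 4, at 10.08, which lay below 4 of the controls. RAO-affected horse 8 was the highest of all 14 horses and control horse 13 the lowest.

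The mean SELP level was 10.41 ± 0.70 (SD, n = 7) in controls and 12.06 ± 1.28 (SD, n = 7) in RAO-affected horses. The difference was 1.64 on the log2 scale (SE 0.52), or 3.12-fold. The SELP signal was well above background on all 14 arrays. Its 5 spots on an array differed among themselves by an SD of 0.0317 to 0.0842, far below the spread between horses of either group.

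CAV1 was also higher in the RAO-affected nodes, with more overlap. Its brightest probe, called probe 1, ran in control horses from 11.32 through a median of 12.47 to 13.29 on the same log2 scale. In RAO-affected horses it ran from 12.06 through a median of 13.43 to 15.75. Here 5 of the RAO-affected horses exceeded every control, 1 of them, horse 6, at 13.30 and so level with control 5. Horses 2 and 4 lay within the range of the controls. RAO-affected horse 14 was the highest and control horse 13 the lowest, followed by control horse 7 at 11.40.

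The mean of CAV1 probe 1 was 12.40 ± 0.79 (SD, n = 7) in controls and 13.61 ± 1.16 (SD, n = 7) in RAO-affected horses. The difference was 1.21 on the log2 scale (SE 0.50), or 2.32-fold. Across the array the median probe differed by -0.03 between the groups.

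**Figure D1:**
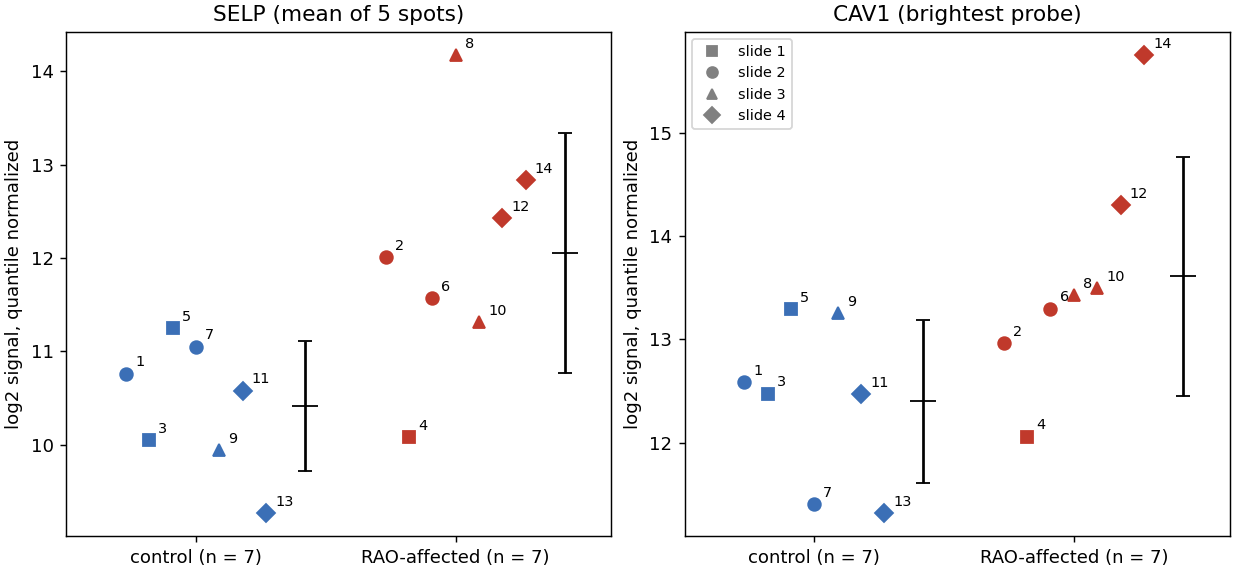
Log2 quantile-normalized signal of SELP (left, mean of 5 spots) and of the brightest CAV1 probe (right) in each horse, numbered, with the slide given by the marker; the bars are the mean ± SD of each group of 7. For SELP, RAO-affected horse 4 at 10.08 is the single affected horse among the controls, and for CAV1 horse 14 at 15.75 stands highest.

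A probe was called here by a 2-fold rule, a difference of 2-fold or more with an unadjusted p under 0.05. SELP and CAV1 probes 1 and 2 met that rule in the limma fit, and CAV1 probes 3 to 5 did not. Of the 38726 probes tested, 1.47% met it in either direction and 1.10% met it with the higher level in RAO-affected horses. After Benjamini-Hochberg adjustment no probe passed (0% of 38726, smallest adjusted p 0.874 by limma), while 5.62% had an unadjusted p under 0.05. As both members were chosen from this same contrast, nothing is read from their calls.

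The 5 CAV1 probes ordered the horses alike, though not equally. Their differences between the groups were 1.21, 1.13, 0.79, 0.79 and 1.04 on the log2 scale, from the brightest probe to the dimmest, with SE from 0.38 to 0.51. The mean over the 5 probes differed by 0.99 (SE 0.41), just short of 2-fold. Over the 14 horses, pairs of probes correlated at r between 0.69 and 0.97, and between 0.57 and 0.96 after the group means were removed. Every probe had its highest level in RAO-affected horse 14.

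The overlap of the groups depended on the probe and on the horses of slide 1. With probe 1, 5 RAO-affected horses lay above every control, whereas with probe 2 it was 2 horses and with probes 3, 4 and 5 it was 1 horse each. Control horse 5, on slide 1, set the top of the control range on each of these probes. Without slide 1, the RAO-affected horses above every remaining control numbered 5, 5, 4, 5 and 6 of 6 on probes 1 to 5. Against the control median the picture was more even, since 6 or 7 of 7 RAO-affected horses lay above it on every probe. Probe 5 was well above background in 4 controls and 5 RAO-affected horses, and probe 4 in 6 and 7, so their low values were the least certain.

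**Figure D2:**
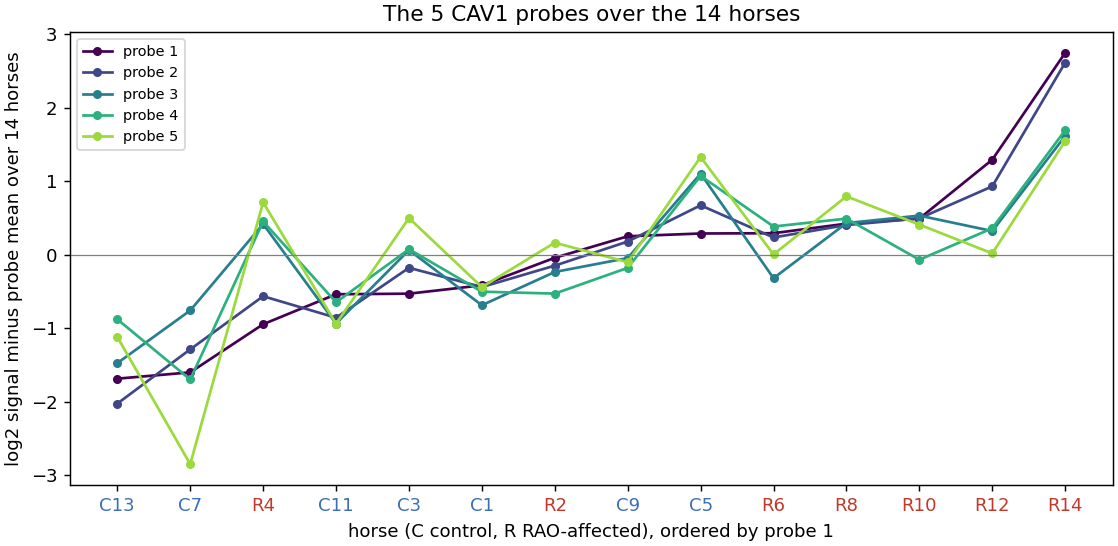
Log2 signal of each CAV1 probe minus its own mean over the 14 horses (vertical axis), with the horses ordered by probe 1 (C control, R RAO-affected). The lines share their highest point at R14, while C5 and R4 rank higher on probes 3 to 5 than on probe 1.

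The differences of both members varied from slide to slide. Within slide 1 the RAO-affected horse was lower than the mean of the controls, by a log2 difference of -0.56 for SELP and -0.83 for CAV1 probe 1. On slides 2, 3 and 4 the differences were 0.88, 2.80 and 2.71 for SELP. For CAV1 they were 1.13, 0.21 and 3.13. Each slide held only 1 or 2 horses of a group, so these values have no test, and a slide cannot be told apart from its horses. On slide 1 the only RAO-affected horse was horse 4. The direction was shared by slides 2 to 4 in both genes. Its size varied from 0.88 to 2.80 for SELP and more widely, from 0.21 to 3.13, for CAV1.

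With slide as a block, the SELP difference was 1.52 (SE 0.57, 2.87-fold) and the CAV1 difference was 1.16 (SE 0.53, 2.23-fold). In that fit SELP kept the 2-fold rule, CAV1 probes 1 and 2 lost it, and probe 5 met it (1.06% of all probes were higher in RAO-affected horses by the rule).

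Without slide 1, the SELP difference was 2.07, or 4.19-fold, and that of CAV1 probe 1 was 1.67, or 3.17-fold. The lowest of the 6 remaining RAO-affected horses, at 11.31, was then above the highest of the 5 remaining controls, at 11.05, for SELP. Such a separation held for 1.02% of all probes over these 11 horses, against 0.0284% over all 14. For CAV1 probe 1 the groups still overlapped, because RAO-affected horse 2 at 12.96 lay below control 9 at 13.26. The dimmest CAV1 probe, probe 5, was among the 1.02% that separated the groups. Its lowest RAO-affected level, 5.88 in horse 6, lay just above the highest control level, 5.77 in horse 9. On this probe RAO-affected horses 6 and 10 and controls 7, 11 and 13 were not well above background, so that separation is uncertain.

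Single horses moved the size of both differences but not their direction. Leaving out 1 horse at a time gave SELP differences between 1.29, without RAO-affected horse 8, and 1.97, without RAO-affected horse 4. For CAV1 the differences ran from 0.86 without RAO-affected horse 14 to 1.47 without RAO-affected horse 4.

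SELP and CAV1 followed each other only loosely from horse to horse. Within the 7 RAO-affected horses the Pearson correlation was 0.55 and Spearman's rho 0.57. Within the 7 controls they were 0.30 and 0.39. In 6 of 7 RAO-affected horses, and in 4 of 7 controls, both genes lay on the same side of the group mean.

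These relations rested on few horses. Without RAO-affected horses 8 and 4, which lay farthest from the SELP median of their group, r was 0.81. Without control horses 13 and 5 it was -0.80, so that the sign turned. Horse 8 had the highest SELP level but only the fourth highest CAV1 level (rank 4 of 14), and its CAV1 level lay 0.19 below the group mean. Horse 14 ranked 1 of 14 for CAV1 and 2 of 14 for SELP.

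Leaving out 1 horse at a time gave r between 0.24 and 0.87 in the RAO-affected group, without horse 4 and without horse 8. In controls it gave -0.25 without horse 13 and 0.69 without horse 7. The choice of CAV1 probe moved r between 0.25 and 0.55 in RAO-affected horses and between 0.02 and 0.49 in controls. With group and slide means removed, r over the 14 horses was 0.51, and CAV1 came at rank 90 of 520 named genes by the likeness of its pattern to that of SELP.

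**Figure D3:**
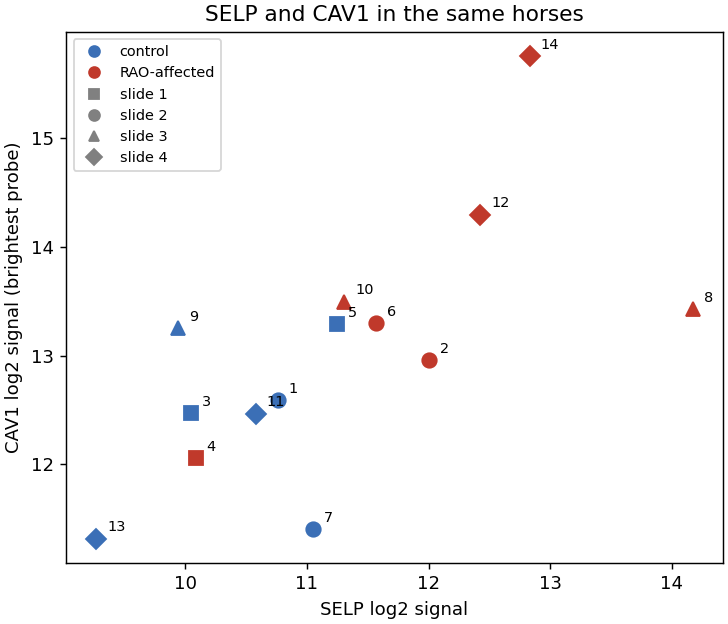
Log2 signal of SELP (horizontal) against the brightest CAV1 probe (vertical) in each numbered horse, with colour for the group and marker for the slide. Control 13 is lowest in both genes, RAO-affected horses 12 and 14 are high in both, and RAO-affected horse 8 is highest in SELP with a CAV1 level of 13.43.

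The closest relatives of the members differed in how closely they followed them. In the gene order of the horse assembly, CAV1 lies between CAV2 and MET. CAV2, whose product joins caveolin-1 in caveolae, was 13.12 ± 0.53 (SD, n = 7) in controls and 13.84 ± 0.73 (SD, n = 7) in RAO-affected horses, a log2 difference of 0.72 (SE 0.33, exact permutation p = 0.0472, limma adjusted p 0.875). It did not pass the 2-fold rule, which it met without slide 1 at a difference of 1.06. A second CAV2 probe gave a difference of 0.74 and the dimmest gave -0.33. On that dimmest probe control 9 was at 12.31, and the other horses lay between 10.31 and 10.64.

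CAV2 followed CAV1 within both groups. Pearson's r was 0.90 within RAO-affected horses (exact permutation p = 0.0105, adjusted 0.210) and rho was 0.93 (exact permutation p = 0.00675, adjusted 0.123). Within controls r was 0.81 (exact permutation p = 0.0256, adjusted 0.256) and rho was 0.89 (exact permutation p = 0.0123, adjusted 0.123). These were the strongest of 20 relations computed between the members and 5 adhesion or caveola genes in each group, and none of the 20 passed after adjustment. Without the 2 horses farthest from the median of the member, r was 0.66 and 0.49.

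SELE, the gene of E-selectin, a selectin made by endothelium, did not follow SELP. Pearson's r with SELP was 0.10 within RAO-affected horses (exact permutation p = 0.805, adjusted 0.895) and -0.07 within controls (exact permutation p = 0.874, adjusted 0.920), and rho was 0.00 in both. The mean of the brightest SELE probe was 8.55 ± 0.22 (SD, n = 7) in controls and 10.01 ± 2.64 (SD, n = 7) in RAO-affected horses, an exact permutation p = 0.0408 with no call by the 2-fold rule. That mean rested on RAO-affected horse 12, at 15.81 and saturated, while the 6 others lay between 8.19 and 10.32, and the difference of 1.46 was 0.49 without that horse. On this probe 5 of the 7 RAO-affected horses, horse 12 among them, exceeded the highest control, at 8.86. The other SELE probes put horse 12 at 8.80, 8.73, 5.48 and 4.97, and their group differences were 0.46, 0.48, -0.07 and 0.17. The probes of SELE therefore disagree, and its level in that horse is uncertain.

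**Figure D4:**
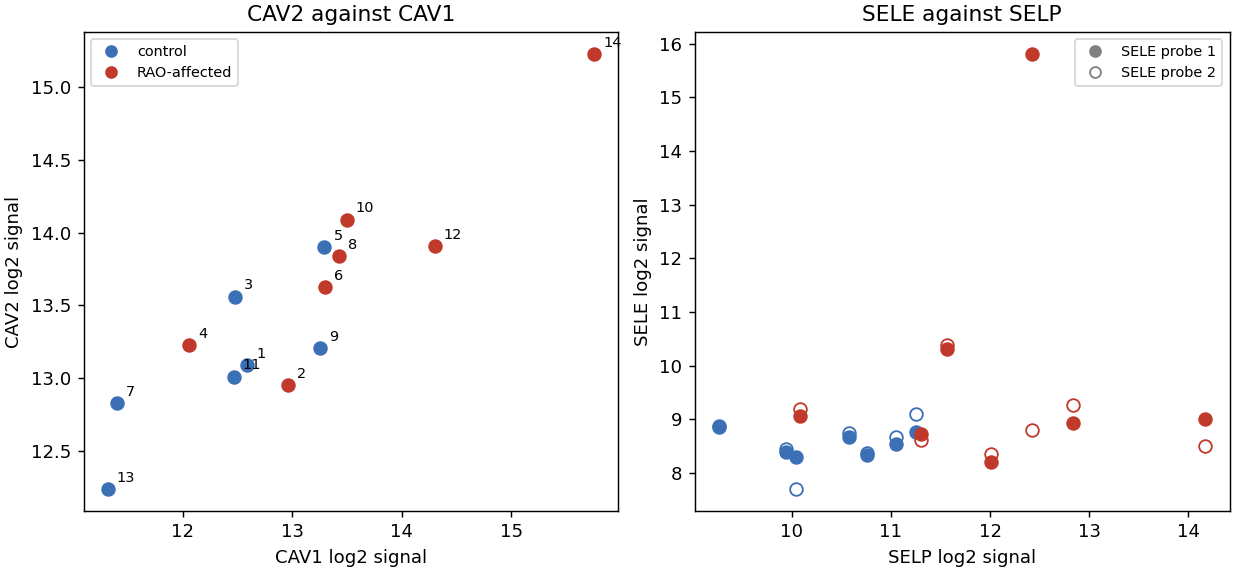
Log2 signal of the brightest CAV2 probe against CAV1 (left, horses numbered) and of the 2 brightest SELE probes against SELP (right, filled and open circles), 1 point per horse and probe. CAV2 runs along with CAV1 from control 13 to RAO-affected horse 14, whereas SELE shows no such trend with SELP. SELE has 1 saturated value of 15.81 on probe 1, which is 8.80 on probe 2. RAO-affected horse 6 is at 10.32 on SELE probe 1 and 10.38 on probe 2.

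Genes of leukocyte adhesion were located for 6 of 25 listed, and none of the 6 passed the 2-fold rule (median log2 difference 0.31, against -0.03 over all probes tested). SELPLG, the ligand of P-selectin, was 10.34 ± 0.89 (SD, n = 7) in controls and 10.45 ± 1.56 (SD, n = 7) in RAO-affected horses (exact permutation p = 0.903). PECAM1, a junction protein of endothelium, differed by 0.45 (exact permutation p = 0.196; 0.93 without slide 1), and VCAM1, the vascular ligand of lymphocyte integrins, by 0.17 (exact permutation p = 0.432). ITGAX, an integrin chain of myeloid cells, differed by 0.58 (exact permutation p = 0.0221) on its brightest probe. That was the largest difference among its 7 probes, which ran from 0.17 to 0.58, and the mean over them gave 0.31. The probe of CD44, a hyaluronan receptor, was saturated in 5 controls and 4 RAO-affected horses, which limits its difference of -0.14. PECAM1 is the 1 located endothelial marker whose probes were not in conflict, and its 3 probes differed by 0.45 to 0.51.

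Of the contents and stimuli of Weibel-Palade bodies, 8 of 19 genes were located, of which 1 rose and none fell by the 2-fold rule (median 0.26). The gene that rose was CXCL8, a neutrophil chemokine that endothelium can store beside P-selectin. It was 9.41 ± 1.19 (SD, n = 7) in controls and 11.55 ± 1.85 (SD, n = 7) in RAO-affected horses, or 4.41-fold higher (exact permutation p = 0.0192). The receptors HRH1, for histamine, and TLR4, for endotoxin, differed by 0.18 (exact permutation p = 0.238) and 0.58 (exact permutation p = 0.00816).

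Among the cytokines that act on endothelium, IL1B differed by 0.92 (exact permutation p = 0.0594; 0.42 without RAO-affected horse 8), IL6 by 0.35 (exact permutation p = 0.787; -0.23 without the same horse) and TNF by -0.12 (exact permutation p = 0.693). IL4, which induces P-selectin in endothelium of some species, was 6.87 ± 0.91 (SD, n = 7) in controls and 5.89 ± 0.48 (SD, n = 7) in RAO-affected horses, a difference of -0.98 that stopped short of 2-fold (exact permutation p = 0.0297). It passed the rule with slide as a block, at -1.07, and without slide 1, at -1.11, whereas normexp background correction gave -0.50. Its 17 probes differed by -1.76 to -0.59, and the mean over them, -1.35, met the rule. Without 1 horse the brightest IL4 probe differed by -1.23 to -0.79. The growth factor gene VEGFA differed by -0.17 (exact permutation p = 0.803), with only 3 controls well above background. The signs of TNF and VEGFA turned without slide 1, to 0.02 and 0.11.

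Of 22 caveola and nitric oxide genes only CAV2 and NOS2 were located, and neither passed the rule. NOS2, the inducible nitric oxide synthase, differed by 0.65 (exact permutation p = 0.0740). NOS3, the endothelial synthase that caveolin-1 restrains, was not located and was not analysed here.

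Over all lists together, 31 of 170 genes were located, 29 were tested, 6 rose and none fell by the 2-fold rule (median 0.39), beside 1.10% of all probes that were higher and 1.47% in either direction. The count was 7 with slide as a block and 8 without slide 1. The lists were drawn up with earlier results of these data known, so their counts and p-values describe these horses and are not independent tests. Besides CXCL8, the genes that rose were markers of other cells. They were CD163, the haemoglobin scavenger receptor of macrophages, CD14, the endotoxin co-receptor of monocytes and macrophages, MMP9, a gelatinase of neutrophils and macrophages, LUM, a fibroblast proteoglycan, and SCGB1A1, the club cell secretory protein, which has a near-identical copy in the horse.

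CD163 was 9.78 ± 0.80 (SD, n = 7) in controls and 12.39 ± 1.03 (SD, n = 7) in RAO-affected horses, or 6.10-fold higher, with every RAO-affected horse above every control (exact permutation p = 0.000583). CD14 rose by 1.11 (exact permutation p = 0.0117), MMP9 by 1.32 (exact permutation p = 0.0204) and SCGB1A1 by 1.33 (exact permutation p = 0.0344), and CD68, a further macrophage gene, differed by 0.04 (exact permutation p = 0.942). LUM rose by 1.51 over 7 controls and 6 RAO-affected horses, since the spot of 1 horse was left out, and its probe was saturated on 3 RAO-affected arrays (exact permutation p = 0.00408). CD14 no longer met the rule without control horse 7 (0.98), nor did SCGB1A1 without control horse 5 (1.15) or RAO-affected horse 6 (1.07).

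**Figure D5:**
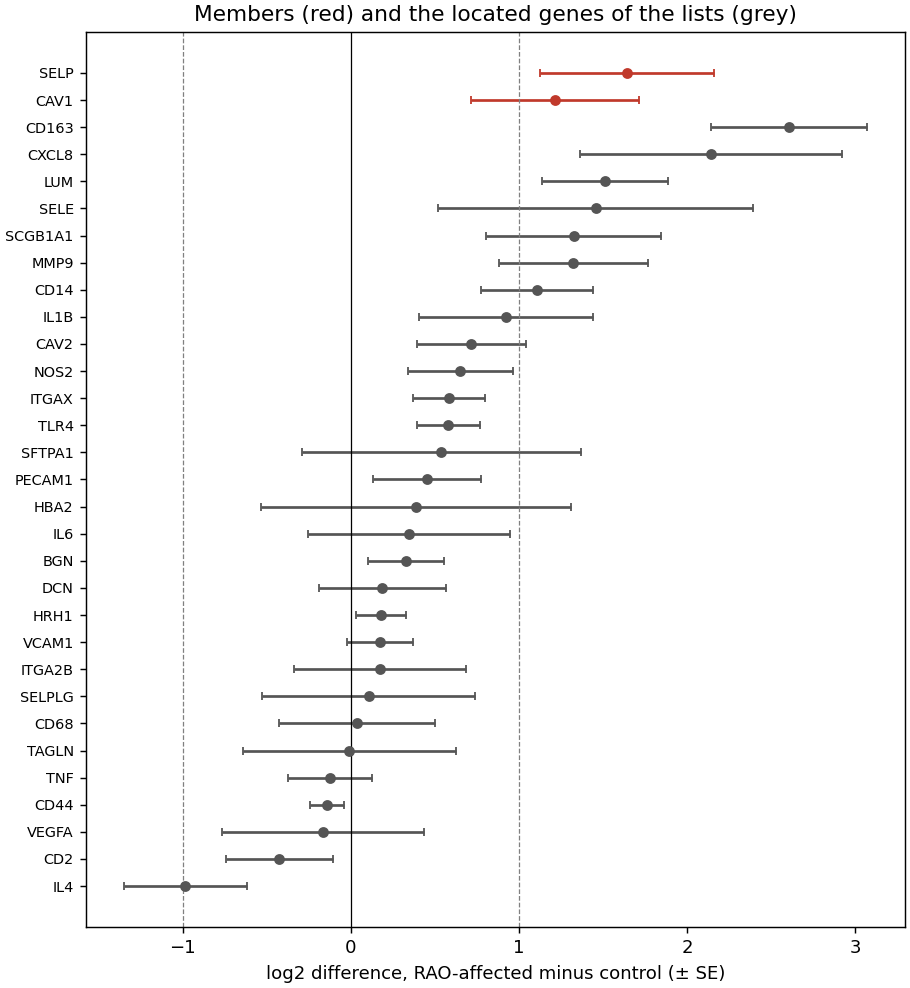
Log2 difference of RAO-affected minus control horses (points, bars ± SE) for SELP and the brightest CAV1 probe (red) and for the 29 tested genes of the lists (grey, ordered by difference). CD44, DCN and LUM rest on probes saturated on several arrays, and the SELE difference rests on a saturated value in RAO-affected horse 12. The dashed lines mark a 2-fold difference; SELP at 1.64 and CAV1 at 1.21 lie beyond it, as do CD163, CXCL8, LUM, SELE, SCGB1A1, MMP9 and CD14 among the list genes.

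Markers of the other cells that hold P-selectin or caveolin-1 were measured on the same arrays, and their part in the results was not tested. Of 12 platelet genes, ITGA2B and ITGB3 were located. ITGA2B differed by 0.17 (exact permutation p = 0.755) with a signal well above background in 5 of 7 control and 5 of 7 RAO-affected horses, and ITGB3 had one in 2 controls and 1 RAO-affected horse. The summed linear signal of these platelet genes ran from 58.7 to 296 in controls and from 63.5 to 316 in RAO-affected horses.

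The located blood endothelium genes summed to between 8252 and 31986 in controls and between 13597 and 83836 in RAO-affected horses, the last with the saturated SELE value of horse 12. Of 10 fibroblast genes, LUM, DCN and BGN were located, and their sum ran from 42736 to 113728 and from 61152 to 165126. The DCN probe was saturated in 1 control and 4 RAO-affected horses and that of LUM in 3 RAO-affected horses, which limits these sums and the DCN difference of 0.19. BGN, like DCN a matrix proteoglycan, differed by 0.33 (exact permutation p = 0.181). The smooth muscle gene TAGLN differed by -0.01 (exact permutation p = 0.988), and none of 8 adipocyte, 6 lymphatic endothelium or 7 B cell genes was located. The erythrocyte gene HBA2 differed by 0.39 (exact permutation p = 0.696), while SLC4A1 was well above background in no horse.

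The other located lists held the lung epithelium gene SFTPA1, which differed by 0.54 (exact permutation p = 0.557), and the T cell gene CD2, by -0.43 (exact permutation p = 0.230). The 2 lung genes summed to between 3915 and 17927 in controls and between 5884 and 57590 in RAO-affected horses. For the 3 macrophage genes the sums were 22271 to 124265 and 33663 to 114049. The CD68 probe was saturated in 1 control and 1 RAO-affected horse and that of CD14 in 1 RAO-affected horse, which limits these sums. CD163, the dimmest of the 3 by its group means, weighs least in them.

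The named genes nearest to each member in pattern were sought over the 14 horses, after group and slide means were removed, among 520 genes with a tested probe. For SELP they were MMP1, an interstitial collagenase (r = 0.90), TNFAIP6, a hyaluronan-binding protein (0.90), COL5A2, a chain of type V collagen (0.88), ADAMTS4, an aggrecan-cleaving protease (0.86), and the cytokine IL1B (0.85). For CAV1 they were TM4SF1, a membrane protein abundant in endothelium (0.98), GSN, the actin-severing gelsolin (0.92), its neighbour CAV2 (0.91), EDNRB, the endothelin B receptor (0.90), and the adhesion molecule CADM1 (0.90). The median r over the 520 genes was 0.09 for SELP and 0.08 for CAV1, and no gene appears among the 5 nearest of both members.

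The nearness of these genes depended unequally on the horse with the highest level. Without RAO-affected horse 8, r with SELP was 0.82 for MMP1, 0.83 for TNFAIP6, 0.86 for COL5A2, 0.71 for ADAMTS4 and 0.80 for IL1B. Without RAO-affected horse 14, r with CAV1 was 0.98 for TM4SF1, 0.88 for GSN, 0.83 for CAV2, 0.82 for EDNRB and 0.90 for CADM1. For ADAMTS4 r was 0.37 when the group means alone were removed, against 0.86 with the slide means removed as well. The same step took r with CAV1 from 0.92 to 0.47 for GSN, from 0.90 to 0.57 for CADM1 and from 0.90 to 0.69 for EDNRB, so the places of these 4 genes depended on the slide term. For COL5A2 with SELP r fell less, from 0.88 to 0.75. For MMP1, TNFAIP6 and IL1B with SELP, and for TM4SF1 and CAV2 with CAV1, r stayed at 0.80 or more.

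Between the groups, MMP1 was 8.61 ± 1.71 (SD, n = 7) in controls and 11.28 ± 2.43 (SD, n = 7) in RAO-affected horses and rose by 2.68 (exact permutation p = 0.0256). TNFAIP6 rose by 2.48 (exact permutation p = 0.00641), whereas COL5A2 differed by 0.81 (exact permutation p = 0.112) and ADAMTS4 by 0.01 (exact permutation p = 0.960). TM4SF1 was 13.08 ± 0.81 (SD, n = 7) and 14.48 ± 0.84 (SD, n = 7) and rose by 1.40 (exact permutation p = 0.00874). EDNRB rose by 1.36 (exact permutation p = 0.0239), GSN differed by 0.52 (exact permutation p = 0.273) and CADM1 by 0.35 (exact permutation p = 0.0559). The genes said here to have risen met the 2-fold rule, and the limma adjusted p of every gene named was 0.874 or more. These genes were picked because they followed a member over the same horses. Their p-values are therefore not independent of the members' differences, which were known beforehand.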

How the data were processed

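Mediastinal lymph node RNA from 14 horses was hybridised to 1-colour (Cy3) Agilent horse arrays, 1 array per horse. The authors deposited the scanner output, with a background-subtracted intensity per spot from Feature Extraction (version 10.5.1.1 per the file headers, 9.1 per the labels) and no scaling over arrays. A value table that the authors also deposited, whose scale, centring and direction are not stated, held values that behaved as a linear ratio, each quantile-normalized value over the median of its probe. Its columns had medians between 0.973 and 1.02 and correlated with the scanner values at r between 0.9992 and 0.9998, and the table was 1 of the alternatives.

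Control spots were dropped, as were spots that Feature Extraction had marked as uneven or outlying, spots of 1 probe were averaged, and log2 intensities were quantile normalized (limma 3.58.1, R 4.3.3). The study's methods name a paired t-test, but the labels give no pairs. Testing was unpaired in limma (two-sided, lmFit then eBayes, with p-values adjusted by Benjamini-Hochberg) over the probes that were well above background on 4 or more of the 14 arrays. For named genes the group labels were also permuted exactly over the horses, two-sided, where the smallest p for 7 against 7 is 0.000583. The script was tested on simulated data. The number of arrays limits the precision.

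Probes were named by RefSeq transcript through the gene table of the horse assembly TB-T2T, which named 2.83% of the probes. IL1B and SCGB1A1 were found through synonyms and CD163 through the accession of the study's primer table. Where several probes measured 1 gene, the brightest by mean log2 signal stood for it. No coordinates and no probe sequences are printed. The members and the gene lists were chosen with earlier results of these data known. Named are SELP and CAV1, every located gene of the 3 vascular and adhesion lists, the genes of the cell type lists past 2-fold and an unadjusted p under 0.05 (other located marker genes are given as values), and the 5 named genes nearest in pattern to each member. Alternatives were 75th percentile scaling, normexp (offset 50, on median spot signals in place of the mean spot signals first planned), other filters on dim probes, slide as a block, the omission of slide 1 or of each horse, array weights, marked spots kept, the ratio table, the mean over the probes of a gene and the methods' t-test unpaired.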

Additional observations from a re-analysis of the deposited data

Results flagged for a closer look

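Among the 54 groups of 7 horses examined for a horse far from the rest, 6 held one, and chance alone flags about 1 group in 20. SELE was 15.81 on the log2 scale in RAO-affected horse 12 against 8.19 to 10.32 in the other RAO-affected horses, on 1 of its probes. SELPLG was 13.60 in RAO-affected horse 2 against 9.17 to 10.93. IL1B was 14.37 in RAO-affected horse 8 against 10.16 to 11.51, and IL6 was 14.22 in the same horse against 9.57 to 11.11. That horse also had the highest SELP level, although its SELP value was not itself flagged. TNF was 10.90 in RAO-affected horse 4 against 9.54 to 10.10, and CD14 was 15.80 in control horse 5 against 13.45 to 14.36 in the other controls. What set these values apart was not tested.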

How the results depend on the processing

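The direction of the SELP and CAV1 differences held under every alternative over the whole table and without each horse, with values from 1.29 to 2.07 for SELP and from 0.86 to 1.67 for CAV1. It turned within slide 1 (-0.56 and -0.83), while slides 2, 3 and 4 gave 0.88, 2.80 and 2.71 for SELP and 1.13, 0.21 and 3.13 for CAV1. The correlation of the members ran from -0.25 to 0.69 within controls and from 0.24 to 0.87 within RAO-affected horses when 1 horse was left out. The count of probes past 2-fold and an unadjusted p under 0.05, 570, was 262 with normexp, 299 with a filter at all 14 arrays and 1112 without slide 1, and between 388 (without RAO-affected horse 14) and 1120 (without RAO-affected horse 4) without 1 horse. The methods' t-test, unpaired, gave 490, and 0 probes passed adjustment in every fit. The list genes past the rule numbered 5 to 7 without 1 horse. Signs that turned were those of VEGFA (0.34 with marked spots kept or with the ratio table, 0.11 without slide 1, -0.45 to 0.24 without 1 horse), TNF (0.036 with slide as a block, 0.015 without slide 1, -0.28 to 0.0031 without 1 horse), SELPLG (-0.42 to 0.32 without 1 horse) and IL6 (-0.23 to 0.54 without 1 horse). Without changing sign or call, IL1B was 0.42 without RAO-affected horse 8, PECAM1 0.29 without control 13, VCAM1 0.03 without control 13 and 0.37 without slide 1, HRH1 0.10 without RAO-affected horse 14 and IL4 -0.50 with normexp. With the mean over all probes of a gene, CAV1 was 0.99, just short of 2-fold. In that setting CAV2 was 0.38, ITGAX 0.31, NOS2 0.43, SELE 0.50 and IL4 -1.35, of which IL4 met the 2-fold rule. The causes were not tested. No paired analysis was possible because the labels state no pairs and the groups share no replicate numbers. The fit with slide as a block took up only what horses of 1 slide shared.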
